A study of Mus musculus with 2 samples.

Results

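ARID4B occupancy in the newborn mouse testis was examined at 53 genes of TGF-beta and BMP signalling out of 21887 protein-coding genes. The 53 were chosen by name and comprise 25 ligand genes, 12 receptor genes, 8 Smad genes and 8 regulator genes. ARID4B is a subunit of the SIN3-histone deacetylase corepressor complex. The data come from 1 chromatin immunoprecipitation (ChIP) library against ARID4B, made from a pool of 108 testes of wild type males, hybrids of C57BL6/J and 129/SvEv, at postnatal day 1.5. Input DNA from testes of the same strain, genotype and age gave 1 control library. No ARID4B-deficient library was analysed here, so the dependence of these intervals on the protein was not tested.

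TGF-beta family ligands are secreted as dimers that bring type I and type II receptor kinases together at the cell surface. The type I receptors phosphorylate receptor-regulated Smads, which join Smad4 and enter the nucleus to regulate genes together with other factors. Activin, TGF-beta and Nodal signals run mainly through Smad2 and Smad3, and BMP signals through Smad1, Smad5 and Smad9. Inhibitory Smads, Smurf ubiquitin ligases and the corepressors Ski and SnoN (gene Skil) restrain the pathway, and several of these genes are themselves induced by it. In the male gonad, activin and BMP signals act on Sertoli cells and germ cells, and anti-Müllerian hormone from Sertoli cells makes the Müllerian ducts regress.

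The authors' list held 6632 intervals of ARID4B enrichment over input, with a median width of 1084 bp. Each interval carries the authors' score, an evidence value from 70.02 to 1760.61 with a median of 125.0, which is used below only to describe and rank intervals within this list. There is 1 library, so values have no replicate error, and genes are not replicates, so the roles are described side by side with no test. The depth of the libraries is unknown here. A gene counts as marked when an interval overlaps its record, from the lowest to the highest annotated position, or the 1 kb either side. The tissue cannot be checked by expression in these data. Beside 30.7% of all protein-coding genes, intervals marked 5 of 5 Sertoli cell, 1 of 4 germ cell, 0 of 4 Leydig, 1 of 3 peritubular myoid, 1 of 3 endothelial and 0 of 3 macrophage genes, and the shares of 1 in 3 or 4 are near that of all genes. The marker lists were short and chosen with earlier results of these data known, so these counts do not check the tissue. The pool holds every cell type of the testis, so an interval cannot be placed in 1 of them.

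Receptor and regulator genes were mostly marked, whereas most ligand genes were not. In all, 29 of the 53 genes (54.7%, 95% Clopper-Pearson interval 40.4 to 68.4%) had an interval, against 30.7% of all protein-coding genes. Of the 12 receptor genes, 10 were marked (83.3%, 51.6 to 97.9%), and of the 8 regulator genes, 7 were (87.5%, 47.3 to 99.7%). Of the 25 ligand genes, 8 were marked (32%, 14.9 to 53.5%), a share near that of all genes. With only intervals above the list median, 2 of 25 ligand genes were marked, against 16.7% of all genes, and 5 of 12 receptor and 4 of 8 regulator genes. Smad genes stood between, with 4 of 8 (50%, 15.7 to 84.3%). These intervals cover counting error only. Each of the 36 intervals at the 53 genes belonged to 1 of them, and 26 of the 29 marked genes had a best interval that reached no other protein-coding gene. A few genes are neighbours, such as Acvr1 and Acvr1c (88.5 kb apart), Smad3 and Smad6 (195.1 kb) and Lefty1 and Lefty2 (35.9 kb).

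**Figure D1:**
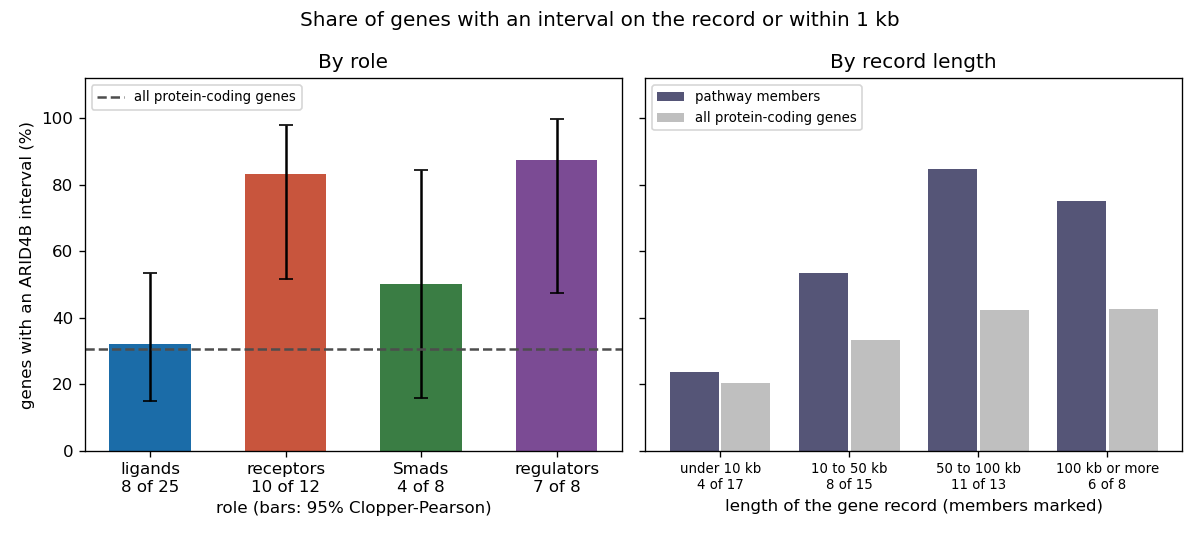
Share of genes with an ARID4B interval on the record or within 1 kb, in percent. Left, each role with its 95% Clopper-Pearson interval and the share of all protein-coding genes (30.7%) as a dashed line; right, the 53 genes (dark bars) and all protein-coding genes (grey bars) by length of the gene record. Ligands sit at the dashed line, and receptors and regulators lie above it.

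A long record offers more room for an interval, and the roles differ in length. The median record was 7.4 kb for ligands, 18.6 kb for regulators, 65.0 kb for Smads and 89.8 kb for receptors. Among all protein-coding genes, 20.3% were marked when the record was under 10 kb, 33.2% at 10 to 50 kb, 42.3% at 50 to 100 kb and 42.7% at 100 kb or more. Of the 53 genes, 4 of 17, 8 of 15, 11 of 13 and 6 of 8 were marked in the same bands. Of the 13 ligand genes under 10 kb, 1 was marked, while 3 of the 4 regulator genes of that length were. At 10 to 50 kb, 4 of 8 ligand, 2 of 3 receptor, 1 of 3 Smad and 1 of 1 regulator genes were marked. At 50 to 100 kb these counts were 2 of 2, 5 of 5, 2 of 4 and 2 of 2. At 100 kb or more they were 1 of 2, 3 of 4, 1 of 1 and 1 of 1. The low ligand share was thus seen in records under 10 kb, and the longer bands hold few genes of each role. Counting only the 1 kb either side of a record's ends, 27.1% of all genes had an interval, and so did 7 of 25 ligand, 10 of 12 receptor, 4 of 8 Smad and 7 of 8 regulator genes. The part of record length in the difference between roles was not tested.

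**Figure D2:**
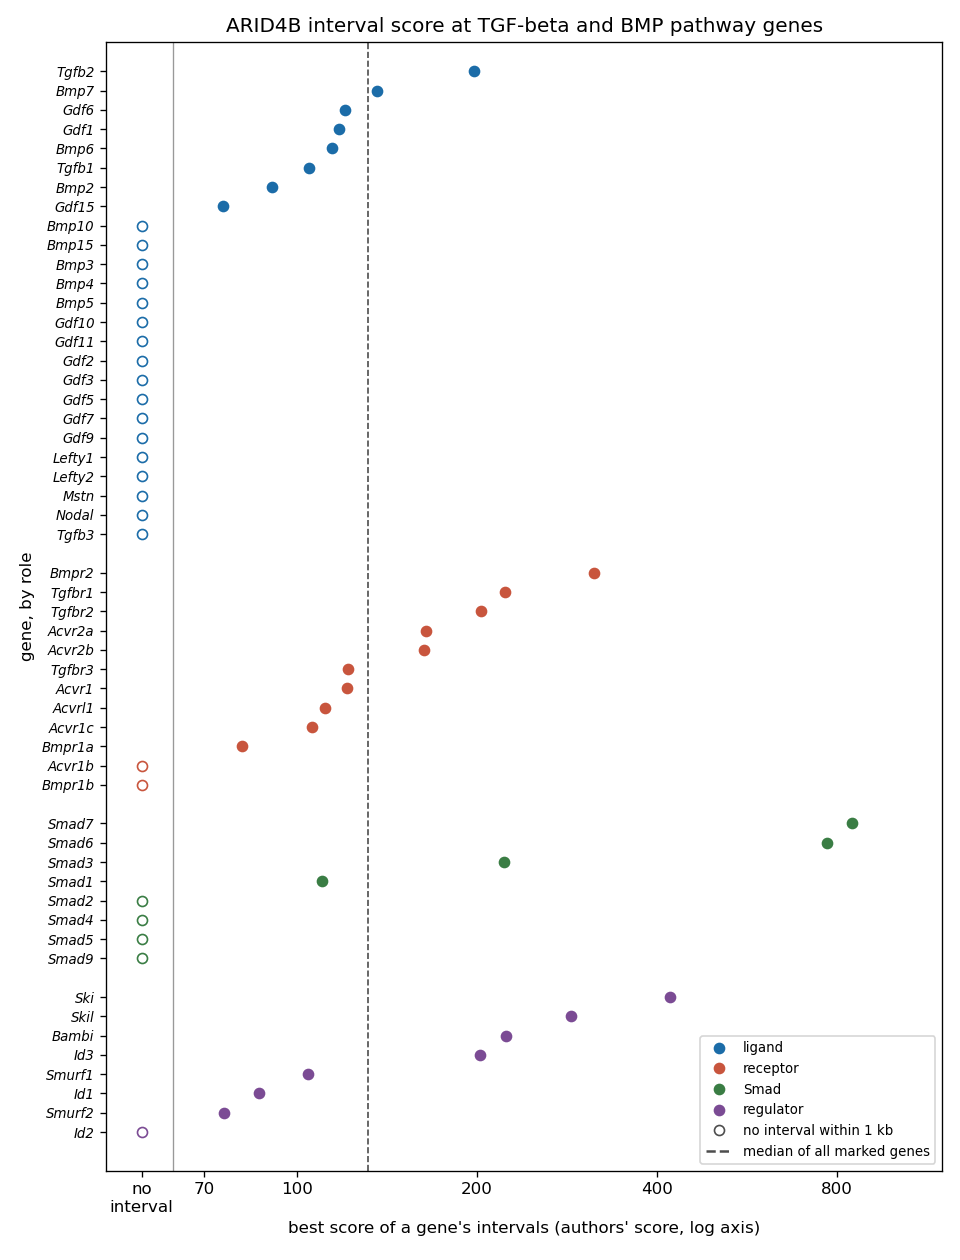
Best score of the intervals of each gene on a log axis, by role; open circles at the left are genes with no interval within 1 kb, and the dashed line is the median of all marked protein-coding genes (131.8). Smad7 and Smad6 stand to the right of every other gene, and 6 of the 8 marked ligands lie left of the line.

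The inhibitory Smads carried by far the highest scores among the 53 genes. Smad7, which blocks type I receptors and recruits Smurf ligases to them, had a best score of 848.3, rank 19 of the 6632 intervals. Smad6, the inhibitory Smad that acts mainly on BMP signals, had 771.97, rank 25. These were the only members with a best interval among the 100 highest, and next came the corepressor gene Ski with 420.45, rank 210. The median best score of the 6709 marked protein-coding genes was 131.8.

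Smad7 was covered by a run of 6 intervals over 10.9 kb, from 1.2 kb before the lower end of its record to 9.7 kb inside it. In order along the chromosome their scores were 99.15, 252.33, 848.3, 109.95, 123.24 and 72.76, the third being 2626 bp wide. Together they covered 7541 bp, against a median of 1177 bp per marked gene. Only 2 other protein-coding genes had as many intervals, Rara with 7 and Gse1 with 6, both looked up after the values were seen, and 10.7% of marked genes had 2 or more. The list of starts used below has no entry for Smad7, so its intervals are placed by the lower end of the record only.

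Smad6 had 2 intervals. The stronger was 3267 bp wide (chr9:64019765-64023031, GRCm38) and contained the listed start of transcription, with its midpoint 661 bp downstream. The weaker (113.63) lay 68.2 kb downstream of that start, near the far end of the record. The 2 together covered 4097 bp.

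**Figure D3:**
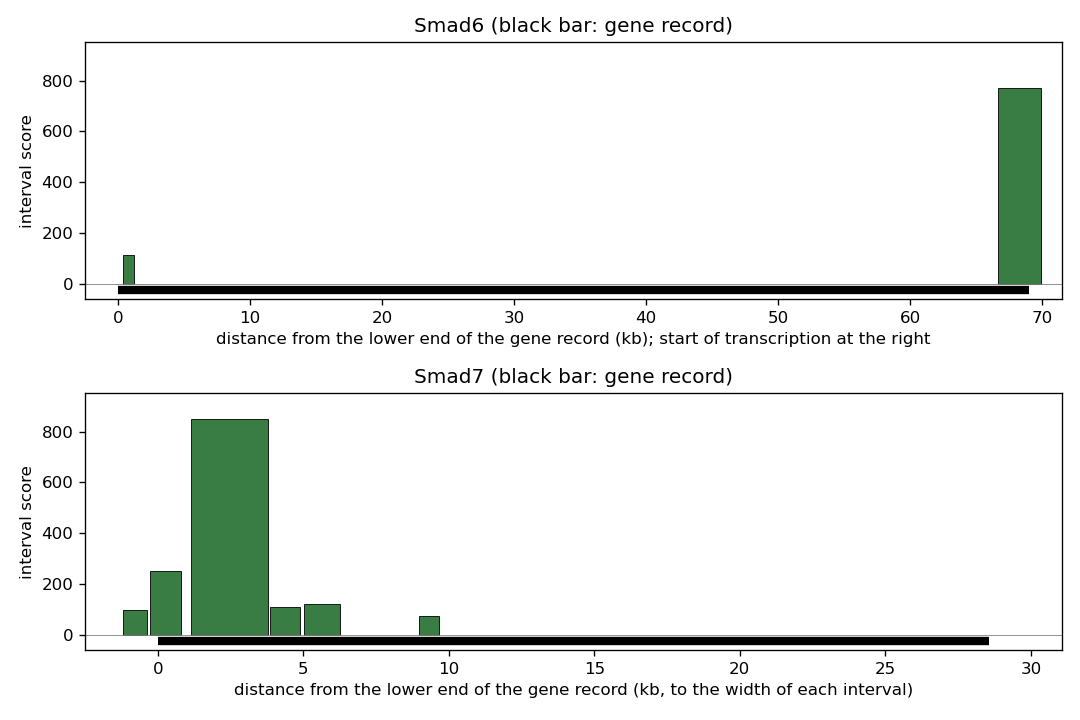
ARID4B intervals along Smad6 (top) and Smad7 (bottom), drawn to width as distance in kb from the lower end of the gene record (black bar), with height giving the authors' score. Smad6 has 1 high interval at its start and a low one at the other end, and Smad7 has 6 intervals side by side in 10.9 kb.

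The Smads that carry the signal were marked in 2 of 6 cases (33.3%), a share near the 30.7% of all protein-coding genes. Smad3, which transmits TGF-beta and activin signals, had an interval over its start scoring 221.73 (chr9:63756740-63758598). Smad1, a BMP Smad, had one over its start scoring 110.34 (chr8:79398619-79399893), below the median of the list. Smad2, Smad5, Smad9 and the common Smad4 had none. The nearest intervals lay 94.5 kb from Smad2, 480.9 kb from Smad5, 19.6 kb from Smad9, where it sits at Exosc8 and Alg5, and 50.1 kb from Smad4, where it sits at Elac1. Grouped by function after the values were seen, 2 of the 6 signal-carrying Smads were marked, and all 7 intracellular or receptor-level inhibitors were (Smad6, Smad7, Smurf1, Smurf2, Ski, Skil and Bambi). Being a grouping made with these counts in view, it carries no weight as evidence.

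Among the regulators, Ski and Skil, which encode corepressors that bind Smads and recruit histone deacetylases, had scores of 420.45 (chr4:155221313-155222665) and 287.01 (chr3:31094912-31096143). The Ski interval contained its start, and the Skil interval spanned the lower end of its record. Bambi, which encodes a pseudoreceptor without a kinase domain, had 223.48. Smurf2, a ubiquitin ligase gene, had a narrow interval of 494 bp over its start with a score of 75.45, close to the lowest of the list. Smurf1, its relative, had 104.39, but this interval lay 88.6 kb downstream of the listed start and 309 bp inside the far end of the record (chr5:144876804-144877740). Smurf1 therefore counts as marked without any interval at its start.

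The Id genes encode helix-loop-helix proteins without a DNA-binding region and are classical BMP targets. Id3 had a score of 202.36 (chr4:136143520-136145337), and its interval of 1818 bp covered the start and nearly all of the 1.6 kb record. Id1 had 86.42 (chr2:152736003-152737291), covering most of its 1.2 kb record. Id2 had no interval nearer than 118.3 kb. Id4, not among the 53, had 109.91.

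All 4 type II receptor genes were marked, beside 30.7% of all protein-coding genes, and each was above the median score of the list. Bmpr2, the type II receptor for BMPs, had 314.38 (chr1:59762534-59764266), Tgfbr2, that for TGF-beta, 203.07 (chr9:116174257-116175397), and the activin receptors Acvr2a and Acvr2b had 164.64 (chr2:48814043-48814714) and 162.91 (chr9:119402287-119403704). Bmpr2 was the only marked gene whose interval lay wholly outside its record. It ended 13 bp before the start of transcription, so Bmpr2 counts as marked through the 1 kb window alone. On the other side of that window, the nearest miss was Lefty1, 3.5 kb from an interval at Tmem63a.

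Type I receptor genes were marked in 5 of 7 cases (71.4%), beside 30.7% of all protein-coding genes. Their median best score was 111.3, against 183.9 for the type II genes. Tgfbr1, the TGF-beta type I receptor, had 222.91 (chr4:47352519-47354156). The interval covered the first of its 2 listed starts. Acvr1 (121.41, chr2:58566283-58566935), Acvrl1 (111.31, chr15:101127924-101129327), Acvr1c (106.1, chr2:58357161-58357794) and Bmpr1a (80.92, chr14:34501709-34502508) were all below the median score of the list. Acvr1 encodes a BMP and activin receptor, Acvrl1 the endothelial receptor ALK1, Acvr1c the Nodal receptor ALK7 and Bmpr1a a main BMP receptor. The Acvr1 interval also marked Upp2. Acvr1b, the activin receptor ALK4, had none, the nearest lying 10.2 kb away at Grasp, and Bmpr1b had none within 371.3 kb. Tgfbr3, which encodes the co-receptor betaglycan, had 121.57 (chr5:107288271-107289882).

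Marked ligand genes had the lowest median score of the 4 roles. It was 116.0, against 142.2 for receptors, 202.4 for regulators and 496.9 for the 4 marked Smads. The Smad median was 236.3 with the mean over a gene's intervals and 237.0 at record ends alone. Tgfb2 had the highest, 197.69 (chr1:186704907-186706141). This interval contained the listed start of Tgfb2, which lies inside the record, and it was not within 1 kb of a record end. Tgfb1 had 104.95 (chr7:25686927-25688072), and the same interval marked B9d2. Tgfb3 had none within 309.1 kb.

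Of the 8 BMP genes, Bmp7, Bmp6 and Bmp2 were marked (37.5%), a share near the 30.7% of all protein-coding genes. Bmp7 had 136.36 (chr2:172939505-172940650) and Bmp2 91.02 (chr2:133552075-133552801), each spanning a record end. Bmp6 had a pair of adjoining intervals at its start, with scores of 83.22 and 114.51 (chr13:38344776-38345909 and chr13:38345920-38346718). Bmp3, Bmp4, Bmp5, Bmp10 and Bmp15 had none, and their nearest intervals were 367.2, 397.0, 148.7, 296.0 and 997.8 kb away. Bmp4 is a morphogen needed for the formation of primordial germ cells, and Bmp15 is an oocyte factor on the X chromosome.

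Of the 11 GDF and myostatin genes, 3 were marked (27.3%), a share near the 30.7% of all protein-coding genes. Gdf6 had 120.19 (chr4:9844232-9845073) at a record end. Gdf1 had 117.44 (chr8:70315437-70316266), and the same interval marked Cers1, whose transcript also carries the Gdf1 reading frame. It covered the first listed start of Gdf1 and not the second, 14.0 kb further on. Gdf15, a stress-induced ligand gene, had 75.15 (chr8:70630834-70631785), with no listed start inside. Gdf2, Gdf3, Gdf7, Gdf10 and Mstn had no interval within 264.2 kb. Gdf5, Gdf9 and Gdf11 had intervals 10.8, 19.0 and 17.8 kb away, at Cep250, Shroom1 and Cd63. None of the 3 Nodal and Lefty genes was marked. Lefty1 and Lefty2, which encode Nodal antagonists, lay 3.5 and 4.8 kb from an interval, and Nodal 26.6 kb from one at Eif4ebp2. Of the 17 unmarked ligand genes, 11 were over 100 kb from any interval, and of the 24 unmarked genes of all roles, 14 were. The share among all unmarked protein-coding genes was not counted, so these distances do not set ligands apart.

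Most intervals at genes with a listed start sat at or just downstream of it. RefSeq starts with strand were listed for 35 of the 53 genes, 20 of them marked. At 15 of the 35 genes (42.9%) an interval contained a listed start, against 24.3% of the 17492 protein-coding genes with one. These were 4 of 15 ligand, 5 of 10 receptor, 3 of 5 Smad and 3 of 5 regulator genes. Both shares include unmarked genes, so they also carry the difference in marking. Of marked genes with a listed start, an interval contained one at 15 of 20 here, and at 4258 of 5373 among all protein-coding genes. The midpoint of the best interval lay a median of 452 bp downstream of the nearest start (quartiles 207 and 604 bp, 20 genes), against 220 bp (36 and 441 bp) for all 5373 marked genes with a listed start. It was downstream at 19 of the 20, Bmpr2 being the exception, and at 77.9% of all marked genes with a listed start. The 19 include Smurf1, where it lay 88.6 kb downstream, near the far end of the record. The intervals of Acvr2b, Bmpr1a and Gdf15 began downstream of the start.

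**Figure D4:**
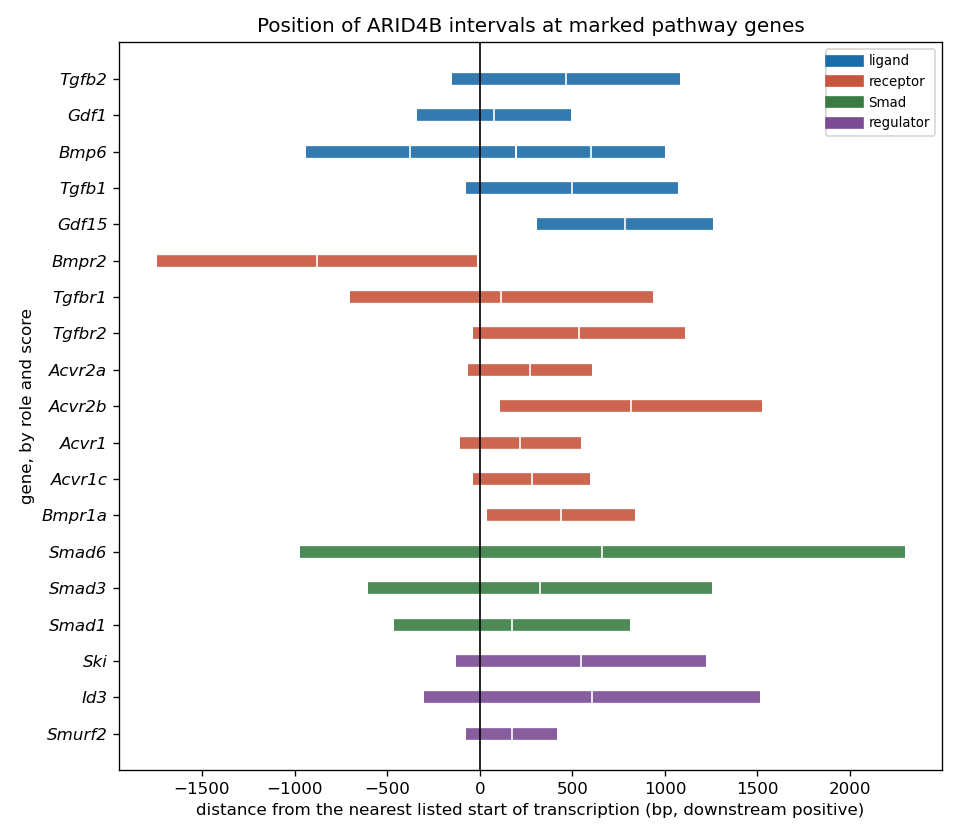
ARID4B intervals at 19 marked genes with a listed start of transcription, as distance in bp from the nearest start (downstream positive), drawn to width with a white tick at the midpoint and coloured by role. Smurf1, whose interval lies 88.6 kb away, and the far interval of Smad6 are off the axis. All but those of Bmpr2, Acvr2b, Bmpr1a and Gdf15 have an interval across the line at 0.

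The promoters of the roles differed in base composition, which the choice of genes did not use. In the 250 bases before the start, the ratio of observed to expected CpG dinucleotides had a median of 0.45 in ligand, 0.88 in receptor, 0.98 in Smad and 0.93 in regulator genes. It was at least 0.6, a usual mark of CpG islands, in 4 of 15, 9 of 10, 5 of 5 and 5 of 5 genes. The median over all protein-coding promoters was 0.54, and 45.2% of them reached 0.6. Across the 17492 protein-coding promoters, 52.2% of genes with a ratio of at least 0.6 were marked and 13% of those below. Of the 53 genes, 16 of 23 and 4 of 12 were marked in these classes. In the CpG-rich class, 1 of 4 ligand (Bmp6), 8 of 9 receptor, 3 of 5 Smad and 4 of 5 regulator genes were marked. In the class below 0.6, 4 of 11 ligand genes were marked, and the only receptor gene, Bmpr1b, was not. That class held no Smad or regulator gene. The CpG-rich promoters without an interval were those of Acvr1b, Gdf7, Gdf10, Gdf11, Id2, Smad5 and Smad9. The CpG-poor genes that were marked were Tgfb1, Tgfb2, Gdf1 and Gdf15, with ratios of 0.60 (just under the limit before rounding), 0.46, 0.51 and 0.05. CpG content moved with both role and marking, and its part in the difference between roles was not tested.

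**Figure D5:**
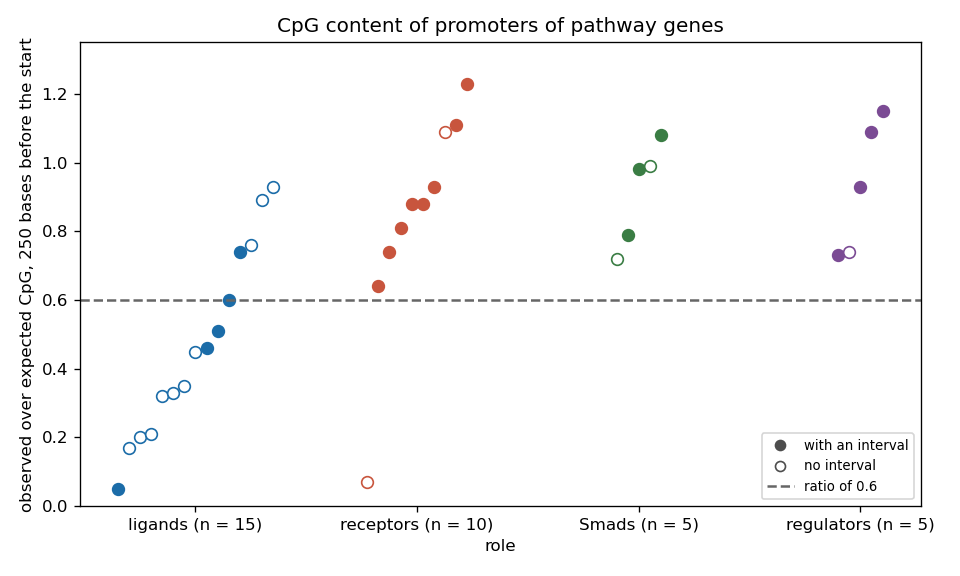
Ratio of observed to expected CpG in the 250 bases before the start of transcription for the 35 genes with a listed start, by role; filled circles had an ARID4B interval, open circles did not, and the dashed line is 0.6. Of the 15 ligand genes, 4 lie clearly above the line, and of the 20 other genes 19 do.

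The promoters of the best-scoring marked gene of each role that has a listed promoter are shown to set their letters beside those of unmarked genes. They are the 250 bases before the RefSeq start on GRCm38.p6, 5′ to 3′ on the gene's strand. Capitals mark the GC box GGGCGG, known to bind Sp and Klf factors, and the GC-rich Smad site GGCGCC, on either strand. The ARID4B interval covered 152 of the 250 bases at Tgfb2, 238 at Bmpr2, 250 at Smad6 and 130 at Ski.
Tgfb2 (chr1:186705990-186706239, - strand): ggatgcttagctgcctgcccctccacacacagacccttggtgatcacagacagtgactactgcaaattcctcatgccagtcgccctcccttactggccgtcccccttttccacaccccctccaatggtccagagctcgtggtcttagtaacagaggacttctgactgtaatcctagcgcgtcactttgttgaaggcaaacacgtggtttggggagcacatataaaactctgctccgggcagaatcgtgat
Bmpr2 (chr1:59764029-59764278, + strand): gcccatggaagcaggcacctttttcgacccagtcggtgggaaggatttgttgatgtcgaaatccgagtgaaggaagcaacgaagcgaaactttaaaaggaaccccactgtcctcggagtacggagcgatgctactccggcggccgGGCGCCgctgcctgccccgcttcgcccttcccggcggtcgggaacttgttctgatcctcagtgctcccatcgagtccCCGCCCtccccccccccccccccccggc
Smad6 (chr9:64022060-64022309, - strand): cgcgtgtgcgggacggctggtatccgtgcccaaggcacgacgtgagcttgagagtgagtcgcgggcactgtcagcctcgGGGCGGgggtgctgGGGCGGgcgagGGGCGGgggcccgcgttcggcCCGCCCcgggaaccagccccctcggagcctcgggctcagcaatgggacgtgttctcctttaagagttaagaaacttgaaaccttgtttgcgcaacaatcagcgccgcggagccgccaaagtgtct
Ski (chr4:155222536-155222785, - strand): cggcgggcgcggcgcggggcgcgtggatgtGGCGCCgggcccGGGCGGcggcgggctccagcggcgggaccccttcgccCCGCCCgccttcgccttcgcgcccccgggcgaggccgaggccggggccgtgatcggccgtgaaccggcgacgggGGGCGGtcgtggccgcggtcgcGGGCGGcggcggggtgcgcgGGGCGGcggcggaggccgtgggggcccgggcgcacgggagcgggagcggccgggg

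In each role the unmarked gene with a listed promoter that lies nearest to an interval gives the contrast. None of the following 4 promoters was reached by an interval.
Gdf11 (chr10:128891719-128891968, - strand): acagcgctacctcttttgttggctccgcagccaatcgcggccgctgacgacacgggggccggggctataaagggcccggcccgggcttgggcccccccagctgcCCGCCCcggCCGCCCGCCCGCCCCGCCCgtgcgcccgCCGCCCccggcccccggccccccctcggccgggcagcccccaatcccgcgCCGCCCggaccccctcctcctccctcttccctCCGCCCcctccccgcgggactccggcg
Acvr1b (chr15:101173822-101174071, + strand): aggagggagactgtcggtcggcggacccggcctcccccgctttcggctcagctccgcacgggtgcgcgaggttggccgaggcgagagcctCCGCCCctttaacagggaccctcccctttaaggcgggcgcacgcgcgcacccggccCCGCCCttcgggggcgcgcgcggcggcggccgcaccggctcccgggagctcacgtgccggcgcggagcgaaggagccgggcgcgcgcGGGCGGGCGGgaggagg
Smad9 (chr3:54755332-54755581, + strand): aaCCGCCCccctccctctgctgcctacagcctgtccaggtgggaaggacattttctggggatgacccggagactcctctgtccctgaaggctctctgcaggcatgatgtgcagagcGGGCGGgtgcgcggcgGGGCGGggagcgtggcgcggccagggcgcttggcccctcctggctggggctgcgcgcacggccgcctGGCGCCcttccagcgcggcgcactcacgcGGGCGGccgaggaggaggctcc
Id2 (chr12:25096093-25096342, - strand): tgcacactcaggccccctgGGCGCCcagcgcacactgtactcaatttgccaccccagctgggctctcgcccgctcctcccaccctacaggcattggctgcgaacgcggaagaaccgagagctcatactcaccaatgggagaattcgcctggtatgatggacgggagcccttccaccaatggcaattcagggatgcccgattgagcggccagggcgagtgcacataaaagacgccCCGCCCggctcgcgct

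The marked promoters were not all alike. Tgfb2 held neither motif and 8 CpG, and Ski held both motifs and 53 CpG. The unmarked promoters of Gdf11, Acvr1b, Smad9 and Id2 held 33, 42, 24 and 18 CpG, a range that overlaps the 22 at Bmpr2 and the 27 at Smad6. A CpG-rich promoter with GC boxes was thus present at genes with and without an interval. The unmarked promoters shown all had a ratio of observed to expected CpG of at least 0.6. Only 7 of the 15 unmarked genes with a listed start did, against 16 of the 20 marked genes. The medians were 24 CpG and a ratio of 0.84 in those marked genes, and 11 CpG and 0.45 in the unmarked genes. All protein-coding genes with a listed start were split in the same direction. A ratio of at least 0.6 was found at 76.9% of the marked and 31.2% of the unmarked, with medians of 0.79 and 0.35.

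Over the 35 promoters, 7 motifs were searched on both strands, and windows of different motifs may overlap. The GC box was held by 17 of 20 marked and 8 of 15 unmarked genes, and by 42.7% of all protein-coding promoters of that length. The GC-rich Smad site was in 6 of 20 and 2 of 15, and in 12.1% of all. The Smad box palindrome GTCTAGAC, the E2F core TTGGCGC and the CRE TGACGTCA were in none of the 35, and in 0.183, 2.63 and 1.98% of all. The ETS core CCGGAA was in Acvr1 and Bmp4 (15.2% of all), and the NRF1 core GCGCATGC in Smad5 (2.98% of all). A match of letters does not show a bound site, and no match says only that the letters are not in this window.

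Among 60 other genes of the pathway, from a list of ligands, antagonists and effectors, 36 were marked (60%), against 30.7% of all protein-coding genes. Their median best score was 141.6, against 131.8 for all marked protein-coding genes. The list was written from pathway membership with earlier results of these data known, so its shares are description only. Of 8 further ligand genes 4 were marked, the inhibin and activin subunits Inhbb (421.1), Inha (357.46, shared with Obsl1) and Inhba (109.4) and the anti-Müllerian hormone gene Amh (352.5, shared with Jsrp1), while Inhbc, Inhbe, Bmp8a and Bmp8b were not. Of 7 receptors and co-receptors 3 were, Rgmb (274.35), Rgma (121.2) and Eng (72.11, shared with Fpgs), while Amhr2, Hjv, Tdgf1 and Cfc1 were not. The ligands Inhbb, Inha and Amh thus scored above every marked ligand of the 53, although the receptor gene of anti-Müllerian hormone had no interval.

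Of 15 secreted antagonists 7 were marked, beside 30.7% of all protein-coding genes. The BMP-binding protein genes Chrd (204.8, shared with Thpo), Nog (193.49) and Twsg1 (153.43) scored highest. The Nodal antagonist gene Dand5 (121.36, shared with Gadd45gip1) came next. Chrdl1, Chrdl2, Fstl3, Cer1, Sost, Sostdc1 and Bmper were among those not marked. Of 9 genes of latency and processing 6 were, with all 4 latent TGF-beta binding protein genes among them, Ltbp1 (154.03), Ltbp3 (134.11), Ltbp2 (132.9) and Ltbp4 (78.03), and the convertase gene Furin (117.43). Thbs1, Bmp1 and Tll1 were not.

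The intracellular genes and the targets had the highest shares of the 60. Of 15 adaptors, kinases and corepressors 11 were marked. The highest were Tgif2, a Smad corepressor gene (600.75, shared with an uncharacterised locus), Sin3a, the scaffold of ARID4B's own complex (402.47), the Smad anchor gene Zfyve9 (276.23) and Ncor1 (222.78, shared with Pigl). Strap, Pmepa1, Tab1 and Zeb2 were not marked. Of 6 targets 5 were, Junb (416.44), Ccn2 (134.19), Id4 (109.91) and Msx1 (99.15) first. These shares stand beside the 30.7% of all protein-coding genes and were not compared by a test.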

How the data were processed

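ARID4B ChIP-seq was made from 1 pool of 108 postnatal day 1.5 testes with 1 input library. Per the submitters' processing notes, BWA, MACS and the build mm9 were used. Their versions and settings were not given in the sources used here. For the ChIP library the authors deposited 1 interval list, named for mm10, with a score per interval. Its name calls the scores p-values, but none is under 70.02, and their scale is not stated. On GRCm38.p6, 63.5% of 6448 intervals contained a RefSeq start, against 2.02 to 3.86% when shifted by 2 or 5 kb, so the list was read as GRCm38. Positions count from 1.

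Genes were matched by symbol (53 of 53) to RefSeq records of GRCm38.p6. An overlap of at least 1 bp with the record or 1 kb either side marked a gene. Starts, strand and promoter sequence came from a RefSeq table for 17492 genes. Where a gene had several starts, the promoter was that nearest the record's 5′ end. Shares carry 95% Clopper-Pearson intervals, and no test was made. The marking step was tested on simulated data and marked 100.0% of planted genes. Python 3.11.15, pandas 2.3.3 and scipy 1.17.1 were used.

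All 53 genes are named. Of the 60 other pathway genes, the 4 best of each group and those without an interval are named, apart from a few genes that are not reported here. Members and lists were chosen with earlier results of these data known. Alternatives were the window, record ends only, score limits, midpoint or 50% overlap, unshared intervals and autosomes only. Reads, coverage and input values were not used here.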

Additional observations from a re-analysis of the deposited data

How the results depend on the processing

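Receptors and regulators had higher shares than Smads, and Smads than ligands, under all 8 alternatives tried for the counts. Some of these gaps were small. Keeping intervals above the list median left 14 of 53 genes marked (16.7% of all genes). These were 2 of 25 ligands, 5 of 12 receptors, 3 of 8 Smads and 4 of 8 regulators, so receptors and Smads were close. With a score of at least 100 the counts were 24 in all (22% of all genes), 6, 9, 4 and 5. Windows of 5 kb added Lefty1 and Lefty2, the record alone lost Bmpr2, ends alone lost Tgfb2, and leaving out shared intervals lost Acvr1, Gdf1 and Tgfb1. Midpoint and 50% overlap rules marked the same genes as the main rule, so they add no separate check.

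The median best score of the 29 marked genes among the 53 was 121.6, and 121.5 at record ends alone. For marked ligands it fell from 116.0 to 111.2 (mean over a gene's intervals) or 114.5 (ends). For marked Smads it fell from 496.9 to 236.3 (mean) or 237.0 (ends). At ends alone Smad7 counts with 252.33, since its best interval lies inside the record. The share of all genes marked was 32.3% on autosomes and 27.1% at ends. No paired analysis was possible because there is 1 library per group. Depth is unknown here, so a gene without an interval may lie below detection.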
